A study of Drosophila melanogaster with 29 samples.

Results

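The cytosolic ribosomal protein genes were followed in Drosophila S2 cells, an embryonic line with blood-cell character, before and after depletion of Polycomb group proteins or of the histone demethylase dKDM2. A gene was counted as a member when its current symbol was RpL or RpS followed by a digit, or was RpLP0, RpLP1, RpLP2 or sta. Of 92 annotated genes that fit this rule, 40 were measured and 52 are not analysed here. The 40 were 24 genes of the large subunit and 16 of the small subunit, among 11677 genes tested. Each was represented by its brightest probe set that named it alone.

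The study hybridised 29 Affymetrix expression arrays, 1 RNA sample each. The 14 Mock arrays came from S2 cells that were not treated, and 3 arrays came from each of 5 RNAi depletions, of dRING, dKDM2, PH, PC or PSC, in which double-stranded RNA was applied over 4 days. Because Mock cells were untreated, exposure to double-stranded RNA was shared by all 5 depletions and cannot be told apart from loss of the target in any comparison with Mock. All 5 comparisons also shared the same Mock arrays. Separate cultures are not named behind the biological replicates, so each p-value measures only the spread between arrays, which may be partly technical.

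The cytosolic ribosome translates all messages copied in the nucleus. Its large subunit joins amino acids and its small subunit reads the message, and each combines ribosomal RNA with a set of proteins made in matched amounts. In flies, loss of 1 copy of many ribosomal protein genes gives the Minute phenotype of slow growth and short bristles. Several of these genes have a second copy, often used mainly in the ovary or testis. A few proteins are translated as fusions with ubiquitin or a ubiquitin-like protein. RpL24-like and RpL7-like carry ribosomal names, but their yeast relatives Rlp24 and Rlp7 are assembly factors of the large subunit.

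Most members were abundant in untreated cells, and their signal varied little from array to array. The deposited log2 values have a floor of 2.27. After quantile normalization of these values, 33 of 40 members stayed above 4 on all 29 arrays. A further 5 never exceeded 4, namely RpL10Aa, RpL22-like, RpS10a, RpS28-like and RpS28a. RpL37-2 exceeded 4 on 1 array and RpS5b on 20. The 30 members with a mean above 12, leaving out the genes named -like, are called the bright members here. Their SD over the 14 Mock arrays had a median of 0.18, on a scale that is compressed at its bright end.

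Among members far from the floor, RpS15, of the small subunit, had the lowest Mock SD, at 14.77 ± 0.08 (SD, n = 14). RpS19b varied most, with a Mock SD of 1.18. RpL3 came next with a Mock SD of 0.86. RpL27, RpS7 and RpL34a had Mock SDs of 0.62, 0.61 and 0.60. RpS28-like, RpL10Aa, RpS10a and RpL22-like had SDs from 0.02 to 0.09, with Mock means within 0.1 of the floor.

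Members filled 22 to 29 of the 100 brightest gene probe sets on every array, with a median of 27. Quantile normalization, used for the main values, gives every array the same set of values, so the brightest probe sets can move only by changing rank. RpL41, a very short protein of the large subunit, took only 6 distinct values over the 29 arrays after this scaling. A shift shared by most bright members is therefore hidden in the main values, and the deposited values are given beside them.

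The depletions were checked on their target genes. Sce, which encodes dRING, fell by 4.41 on the dRING arrays (limma adjusted p = 1.2e-07), and Pc fell by 2.21 on the PC arrays (limma adjusted p = 0.0021). Psc itself, the target on the PSC label, stood at 6.77 ± 0.62 (SD, n = 14) in Mock and 9.13 ± 0.42 (SD, n = 3) on the arrays labelled PSC, a rise of 5.13-fold. Neither change was limited to those arrays. Psc rose in every depletion, by 3.47 in dKDM2, 2.54 in dRING, 2.77 in PC, 4.45 in PH and 2.36 on the arrays labelled PSC, and Sce also fell in dKDM2 and PH (-2.81 and -2.66). The targets Kdm2, ph-p and ph-d are not analysed here. The blood-cell markers fixed for the check were all measured, and 8 of 12 had a Mock mean above 4. The dKDM2 and PH arrays stood apart technically: the mean log2 signal of the poly-A spikes was 7.15 to 9.18 on dKDM2, 9.09 to 9.61 on PH, and 2.96 to 7.12 on Mock. Neither group overlapped Mock in this signal. A fit with it as a covariate therefore cannot tell a technical difference apart from the depletion in dKDM2 or PH. Replicates 1 and 2 were closer to each other than either was to replicate 3 in every group, with r over gene probe sets of 0.994 to 0.997 against 0.905 to 0.963 within Mock, dRING, PC and PSC, and of 0.971 and 0.965 against 0.922 to 0.950 within dKDM2 and PH. The actin control's 5′ minus 3′ log2 signal, a sign of RNA integrity, was -4.67 to -4.18 on replicate 3 of Mock, dRING, PC and PSC and -1.80 to -1.16 on replicates 1 and 2. It was -3.94 on PH replicate 3, -2.85 to -2.10 on the other PH and the dKDM2 arrays, and -1.94 to -0.33 on Mock 4 to 14.

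Against this background, ribosomal protein genes were called different from Mock on the dKDM2 and PH arrays about as often as genes in general, and rarely on the dRING, PC and PSC-labelled arrays. A gene was called when limma's adjusted p over all genes was under 0.05. In dKDM2, 3 members were higher and 8 lower, or 27.5% of members against 33.2% of all genes (18.4% higher and 14.7% lower). In PH, 5 were higher and 11 lower, or 40% against 35.1% (19.7% higher and 15.4% lower). On the arrays labelled PSC, 2 were higher and 2 lower, or 10% against 16.5% (10% higher and 6.51% lower).

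In PC only RpS19b was called, which is 2.5% of members against 4.55% of all genes (3.32% higher and 1.22% lower). In dRING limma called 0 members against 2.77% of all genes (2.03% higher and 0.745% lower), and 3 members had an unadjusted p under 0.05. The median log2 difference over the 40 members was -0.07 in dKDM2, 0.04 on the arrays labelled PSC and -0.02 in each of the other groups, beside medians within 0.01 of 0 over all genes.

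In total 19 members were called in at least 1 depletion and 21 in none, and no member was called in opposite directions in this fit of all arrays. With the replicate number as a block and Mock 1 to 3 alone, RpL7-like was called in opposite directions, as given with its values. Both dKDM2 and PH had 8 members lower (RpS29, RpL24-like, RpL7-like, RpL15, RpL23, RpL40, RpS27A and RpS28a) and 2 higher (RpL3 and RpL36A). These counts share the Mock arrays and are given side by side only. The matching shares of all genes are not given here, so the counts show nothing particular to ribosomal protein genes.

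**Figure D1:**
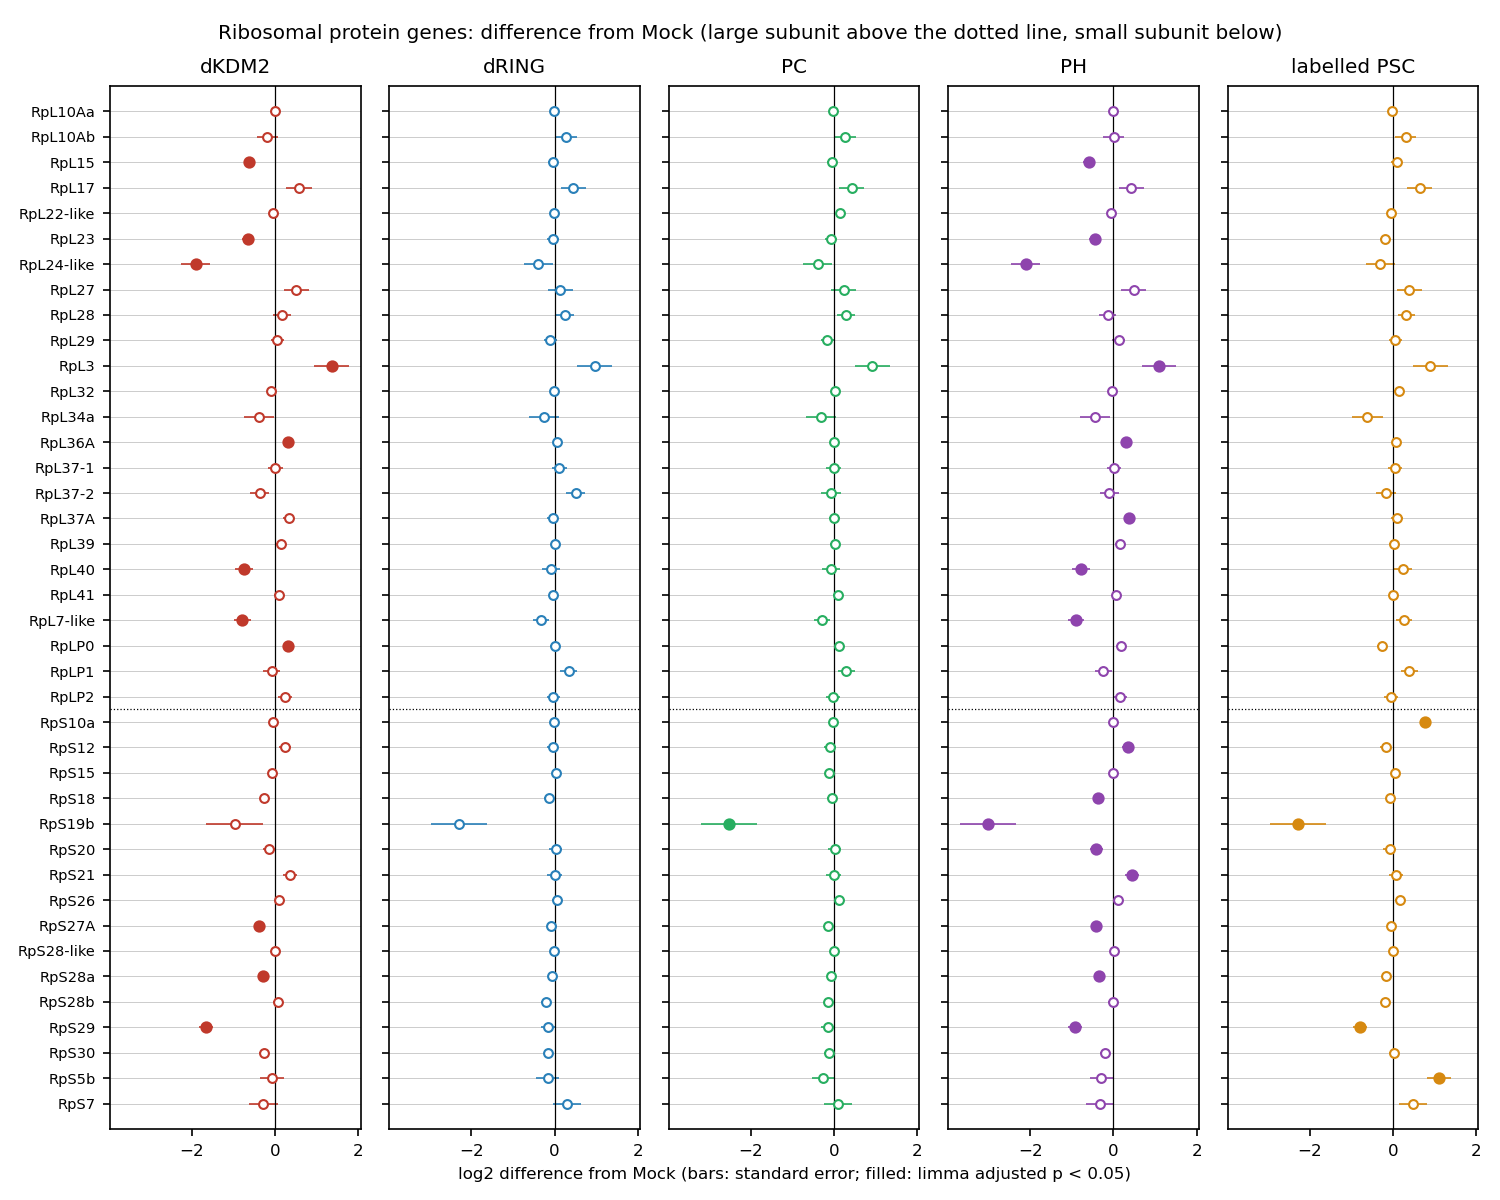
Log2 difference from Mock of each of the 40 ribosomal protein genes (rows) in each depletion (panels), after quantile normalization. Bars are standard errors and filled points have a limma adjusted p under 0.05: dKDM2 has 11 filled points, PH has 16, the arrays labelled PSC have 4, PC has 1 and dRING has 0.

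The 2 members whose yeast relatives act in ribosome assembly were among those with the larger falls. RpL24-like read 10.86 at the lowest, 11.82 at the median and 12.68 at the highest Mock array. It read 9.20, 9.12 and 11.33 on the dKDM2 arrays and 9.45, 9.37 and 10.22 on the PH arrays. All 3 PH arrays lay below every Mock array, while dKDM2 replicate 3 lay within the Mock range. RpL24-like fell by 1.90 in dKDM2 (SE 0.35, limma adjusted p = 0.00012) and fell by 2.11 in PH (SE 0.35, limma adjusted p = 3.5e-05). With the spike signal as a covariate the differences were -1.08 and -1.02, and neither was called.

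On the other arrays RpL24-like stayed within the Mock range, at 11.28 to 11.47 in dRING, 11.22 to 11.56 in PC and 11.31 to 11.80 on the arrays labelled PSC. RpL7-like read 12.22, 12.73 and 13.50 at the lowest, median and highest Mock array. Its dKDM2 arrays read 12.09, 11.80 and 12.15, and its PH arrays read 11.83, 11.77 and 12.07, all below every Mock array. RpL7-like fell by 0.78 in dKDM2 (SE 0.20, limma adjusted p = 0.0032) and fell by 0.90 in PH (SE 0.20, limma adjusted p = 0.00084). Against Mock replicates 1 to 3 alone, which lay low in the Mock range, the dKDM2 difference was -0.27, called with the replicate block (limma adjusted p = 0.041) but not without it (limma adjusted p = 0.073).

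On the arrays labelled PSC, RpL7-like read 13.12, 13.07 and 12.98, within the Mock range, and its difference of 0.26 from all Mock arrays was not called. Each of these arrays lay above the Mock array of the same number, by 0.78, 0.86 and 0.70. With the replicate block it rose by 0.78 (limma adjusted p = 0.00012 over 6 groups and 0.00019 over 4), while it fell in dKDM2 and PH in the same 6-group fit (-0.27 and -0.39). The difference in dRING turned from -0.32 to 0.19 and that in PC from -0.28 to 0.23 when Mock 1 to 3 alone were used, and neither was called. The canonical genes RpL24 and RpL7 are not analysed here.

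RpS29, a zinc-binding protein of the small subunit, had the smallest adjusted p of any member in dKDM2. It read 14.83, 15.13 and 15.50 at the lowest, median and highest Mock array. The dKDM2 arrays read 13.68, 13.03 and 13.63, the PH arrays 14.54, 13.80 and 14.23, and the arrays labelled PSC 14.16, 14.16 and 14.67. All 9 lay below every Mock array. The dRING arrays (14.93, 14.79 and 15.12) and the PC arrays (14.86, 14.84 and 15.18) overlapped the Mock range.

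RpS29 fell 3.17-fold in dKDM2, by 1.66 on the log2 scale (SE 0.17, limma adjusted p = 4.8e-08). It fell by 0.92 in PH (SE 0.17, limma adjusted p = 0.00013) and fell by 0.78 on the arrays labelled PSC (SE 0.17, limma adjusted p = 0.0017). The last was -0.53 and not called against Mock 1 to 3, in the fit of 6 groups with or without the replicate number as a block (limma adjusted p = 0.061 with the block). With the block on Mock, dRING, PC and PSC alone it was called (limma adjusted p = 0.0068). A second probe set for RpS29 with signal above the floor gave -1.73, -0.96 and -0.50 in the same order.

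Both RpL15 and RpL23 lie in the large subunit, and eIF6 binds RpL23 on the face that meets the small subunit. RpL15 ranged from 15.10 to 15.67 in Mock, with a median of 15.50. It read 15.06, 14.68 and 14.76 on dKDM2 and 15.10, 14.76 and 14.72 on PH, so that PH replicate 1 met the lowest Mock array. RpL15 fell by 0.63 in dKDM2 (SE 0.12, limma adjusted p = 0.00032) and fell by 0.60 in PH (SE 0.12, limma adjusted p = 0.00053). Both calls held under every alternative run.

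RpL23 ranged from 15.06 to 15.67 in Mock, with a median of 15.41. Its dKDM2 arrays, at 14.74, 14.57 and 14.98, all lay below Mock. Its PH arrays read 14.88, 14.82 and 15.20, and replicate 3 overlapped Mock. RpL23 fell by 0.66 in dKDM2 (SE 0.14, limma adjusted p = 0.00054), a call that held under every alternative run. It fell by 0.45 in PH (SE 0.14, limma adjusted p = 0.012), a call lost without PH replicate 1 or 2 (limma adjusted p = 0.068 and 0.089).

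**Figure D2:**
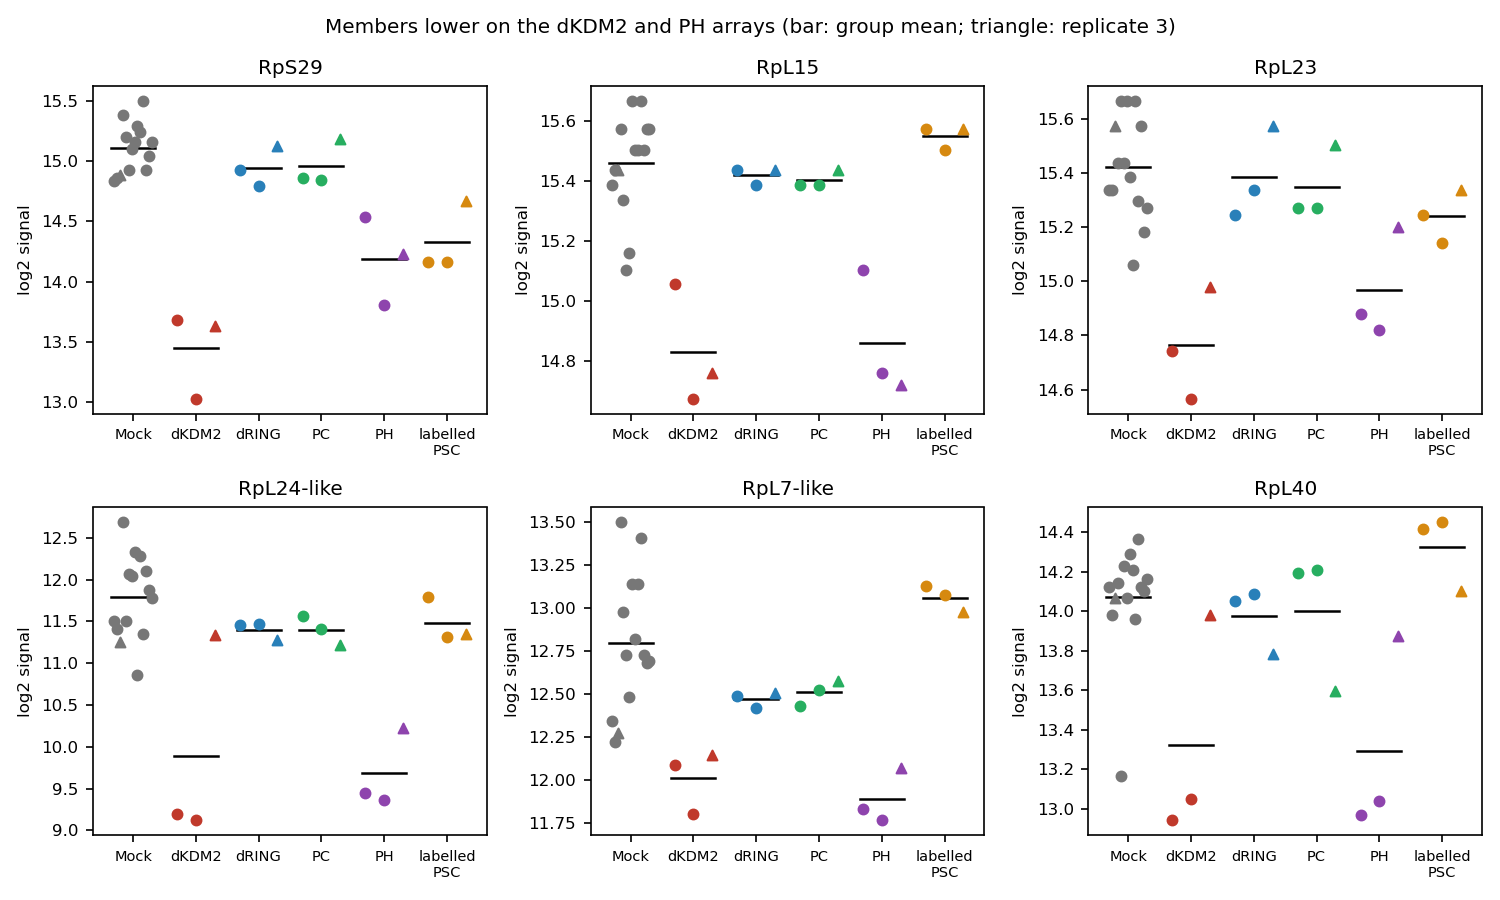
Log2 signal on every array (points) of 6 members that were lower in dKDM2 and PH, with the mean of each group as a bar and replicate 3 as a triangle. The y axes differ between panels. For RpL40 the replicate 3 triangles of dKDM2 and PH sit at 13.98 and 13.87, near the Mock arrays, while replicates 1 and 2 sit at 12.94 to 13.05.

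Both measured ubiquitin fusion genes were lower in dKDM2 and PH. RpL40, a large-subunit protein released from ubiquitin after translation, ranged from 13.17 to 14.36 in Mock, with a median of 14.12. Its dKDM2 arrays read 12.94, 13.05 and 13.98 and its PH arrays read 12.97, 13.04 and 13.87. Replicates 1 and 2 lay below every Mock array and replicate 3 within the Mock range in both groups. RpL40 fell by 0.75 in dKDM2 (SE 0.22, limma adjusted p = 0.0088) and fell by 0.78 in PH (SE 0.22, limma adjusted p = 0.0065). Leaving out replicate 1 or 2 ended both calls, with differences from -0.65 to -0.56. With the spike covariate the differences were -0.31 and -0.19, and with Mock 1 to 3 alone, blocked or not, -0.73 and -0.76, none of them called.

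RpS27A, the small-subunit ubiquitin fusion, ranged from 14.93 to 15.24 in Mock, with a median of 15.13. It read 14.58, 14.75 and 14.89 on dKDM2 and 14.42, 14.73 and 14.95 on PH, and PH replicate 3 met the Mock range. It fell by 0.38 in dKDM2 (SE 0.11, limma adjusted p = 0.0078) and fell by 0.42 in PH (SE 0.11, limma adjusted p = 0.0034). Both calls were lost without replicate 1 (limma adjusted p = 0.088 and 0.086). RpS30, which is made fused to a ubiquitin-like protein, was not called in any depletion. Its differences were -0.28 in dKDM2 and -0.21 in PH, but a dimmer probe set for the same gene gave -3.01 and -2.81.

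A smaller set of members was higher. RpL3, whose protein reaches toward the peptidyl transferase centre, ranged from 11.76 to 14.32 in Mock, with a median of 13.75. It read 14.69, 14.73 and 14.72 on dKDM2 and 14.43, 14.46 and 14.45 on PH, all above every Mock array. RpL3 rose by 1.36 in dKDM2 (SE 0.42, limma adjusted p = 0.014) and by 1.09 in PH (SE 0.42, limma adjusted p = 0.045). Its mean also exceeded that of Mock by 0.96 for dRING, 0.91 for PC and 0.90 for PSC, with arrays overlapping the Mock range. These rises were not called (limma adjusted p = 0.23, 0.25 and 0.17), nor was any RpL3 difference between depletions. Against Mock 1 to 3 the dKDM2 and PH differences were 0.56 and 0.29. Only the first was called, and only with the replicate block (limma adjusted p = 0.014, and 0.079 without it). With deposited values they were 0.90 and 0.62 and were not called. The dKDM2 call was also lost without dKDM2 replicate 1 or 2 (limma adjusted p = 0.051 and 0.054), and the PH call without any 1 PH array or without some single Mock arrays (limma adjusted p up to 0.12). Its second probe set gave 1.55 in dKDM2 but -0.72 in PH.

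RpL36A, of the large subunit, rose by 0.30 in dKDM2 (SE 0.10, limma adjusted p = 0.020) and by 0.31 in PH (SE 0.10, limma adjusted p = 0.017). Its arrays read 15.34 to 15.57 in dKDM2, 15.44 to 15.50 in PH and 14.97 to 15.39 in Mock. Neither call held against Mock 1 to 3 (differences 0.21 and 0.22) or without replicate 2 or 3 of its group. RpLP0, the base of the acidic stalk that recruits translation factors, rose by 0.32 in dKDM2 (SE 0.12, limma adjusted p = 0.036), with arrays from 15.21 to 15.30 above all Mock arrays. That call was lost when any 1 of the dKDM2 arrays was left out. Its stalk partners RpLP1 and RpLP2, which attach to RpLP0 as dimers, differed by -0.08 and 0.24 in dKDM2 and by -0.24 and 0.16 in PH, and were not called. With the replicate block and Mock 1 to 3 alone, RpLP1 was called lower in PH (-0.60, limma adjusted p = 0.044). In the same fit RpLP0 was called higher in PH (0.39, limma adjusted p = 0.010), beside an uncalled 0.18 in the fit of all arrays.

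Another 5 calls, of RpL37A, RpS12, RpS21, RpS18 and RpS20, were in PH alone, with differences from -0.41 to 0.45. RpL37A of the large subunit and RpS12 and RpS21 of the small subunit rose by 0.38, 0.34 and 0.45, with limma adjusted p-values of 0.027, 0.049 and 0.043. RpS12 is known in flies for its part in cell competition between Minute and normal cells. All 3 turned to -0.08, -0.15 and -0.03 when arrays were centred on their medians, and no call of the 3 held without any 1 PH array. The small-subunit genes RpS18 and RpS20 fell, with differences of -0.37 and -0.41 (limma adjusted p = 0.0093 and 0.042). RpS18 was not called without PH replicate 1, and RpS20 was not called without PH replicate 1 or 2. Leaving out single Mock arrays also ended the calls of RpS12, RpS20 and RpS21 (limma adjusted p up to 0.065, 0.056 and 0.057). RpS20 turned to 0.0081 with the spike covariate. In dKDM2, RpL37A, RpS12 and RpS21 differed by 0.32, 0.24 and 0.37 and RpS18 and RpS20 by -0.27 and -0.14. None of these was called, with limma adjusted p-values of 0.064 for RpL37A and 0.059 for RpS18. With the replicate block and Mock 1 to 3, RpL37A was called in dKDM2 (limma adjusted p = 0.039).

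Among the second copies, RpS19b moved furthest. In flies RpS19b is a germline-enriched copy of the small-subunit gene RpS19a, which is not analysed here. RpS19b read 8.26, 10.03 and 11.97 at the lowest, median and highest Mock array. It read 6.72, 7.18 and 8.88 in dRING, 6.57, 6.74 and 8.82 in PC, and 6.88, 7.12 and 8.84 on the arrays labelled PSC. Replicates 1 and 2 of these groups lay below every Mock array and replicate 3 within the Mock range. Replicate 3 is also the array with the low actin ratio in these groups, and the part of RNA integrity in this split was not tested. The PH arrays read 7.09, 6.72 and 6.83, all below Mock, and the dKDM2 arrays read 8.33, 8.61 and 9.82, within the Mock range.

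RpS19b fell 8.05-fold in PH, by 3.01 on the log2 scale (SE 0.68, limma adjusted p = 0.0011). It fell by 2.52 in PC (SE 0.68, limma adjusted p = 0.031) and fell by 2.27 on the arrays labelled PSC (SE 0.68, limma adjusted p = 0.022). The dRING difference of -2.29 was not called (limma adjusted p = 0.065), nor was the dKDM2 difference of -0.97 (limma adjusted p = 0.34). Without replicate 1 or 2 the PC and PSC differences were -2.20 to -1.91 and were not called. Mock replicates 1 to 3 read only 8.39, 8.45 and 9.00. With the replicate number as a block and those Mock arrays alone, the differences were -1.73 in PH (limma adjusted p = 0.0076), -1.24 in PC (0.18), -0.99 for PSC (0.17), -1.02 in dRING (0.37) and 0.31 in dKDM2 (0.73). Against the same Mock arrays without the block, the PH difference was not called either (limma adjusted p = 0.094). Same-numbered PH and Mock arrays did not deviate together, so the block has little basis for PH.

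Germline markers moved in some of the same groups. Of 5 such genes, 2 were lower in dKDM2 and in PH (bam and aub), 1 in PC (aub), 1 on the arrays labelled PSC (bam) and 0 in dRING. The summed log2 level of the 5 ranged from 18.3 to 23.0 in Mock, 15.8 to 17.6 in dKDM2, 18.5 to 18.8 in dRING, 16.9 to 17.5 in PC, 15.3 to 16.3 in PH and 18.5 to 19.3 for PSC. The defining germline gene vas was within 0.1 of the floor on all 29 arrays. The part of these markers in the RpS19b values was not tested.

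The copies RpS10a and RpS5b were called only on the arrays labelled PSC. RpS10a, testis-enriched in flies, read 2.28 to 2.52 in Mock, close to the floor, and 3.02, 3.39 and 2.92 on the arrays labelled PSC. All 3 lay above every Mock array. RpS10a rose by 0.77 (SE 0.05, limma adjusted p = 1.3e-10), a log2 difference that is no measure of fold so near the floor. Its call held under every alternative that tested the gene. The limit to genes above 4 on at least 3 arrays dropped it, because its signal stayed below 4 on all 29 arrays.

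RpS5b, an ovary-enriched copy of RpS5a, read 3.79 to 4.79 in Mock and 4.90, 4.64 and 6.62 on the arrays labelled PSC. It rose by 1.10 (SE 0.28, limma adjusted p = 0.0074), and without replicate 3 the difference was 0.49 and not called (limma adjusted p = 0.23). The actin 5′ minus 3′ signal of that array and of Mock replicate 3 was the lowest of all 29, at -4.67 on both, and its part in the RpS5b value was not tested. RpS10b and RpS5a are not analysed here. The testis-enriched RpL22-like lay between 2.27 and 2.81 on all arrays and was not called.

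**Figure D3:**
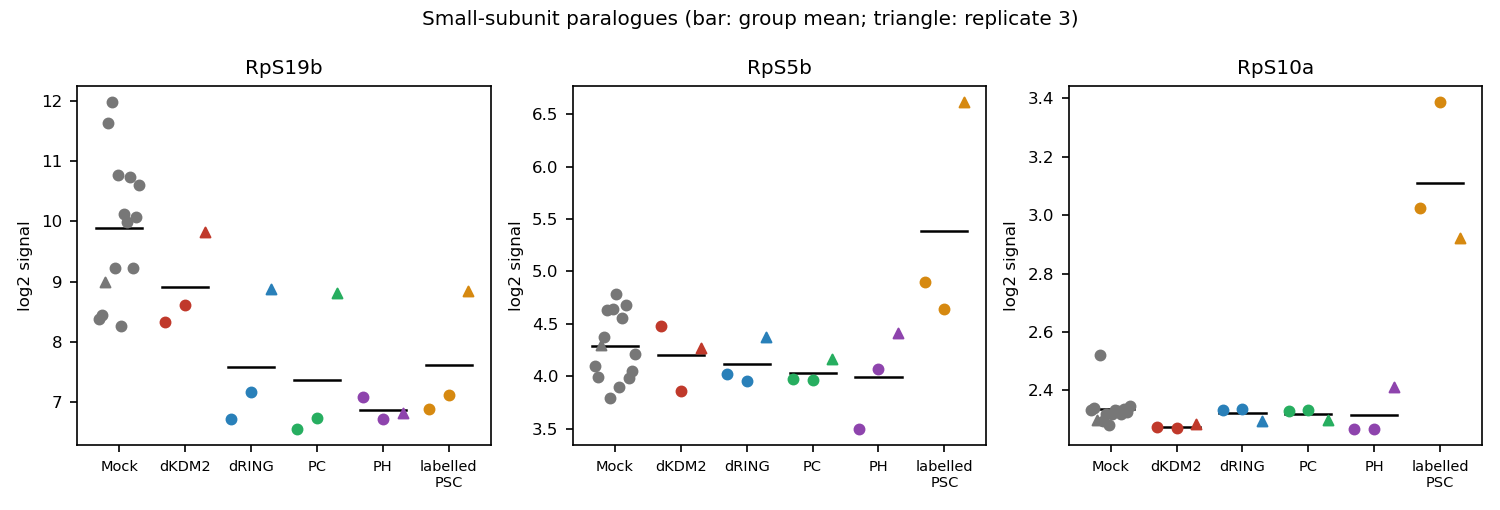
Log2 signal on every array of RpS19b, RpS5b and RpS10a, with group means as bars and replicate 3 as a triangle. The y axes differ between panels. RpS19b is lowest on the PH arrays, the RpS5b mean on the arrays labelled PSC is pulled by replicate 3 at 6.62, and RpS10a is raised on all 3 arrays labelled PSC but stays below 4.

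In each pair with both copies measured, 1 copy was bright and the other dim. RpS28b, the expressed copy, was between 14.61 and 15.12 on all arrays and was not called in any depletion. RpS28a read 2.50 to 3.05 in Mock and was called lower in dKDM2 and PH (-0.30 and -0.34), but with deposited values the differences were -0.07 and -0.06 and were not called. RpS28-like stayed within 2.27 to 2.33. RpL10Ab, a protein of the mobile L1 stalk, ranged from 13.00 to 14.62 on all arrays and RpL10Aa from 2.27 to 2.48, and neither was called.

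RpL37-1 ranged from 14.09 to 15.10, while RpL37-2 stayed below 4 except for dRING replicate 3 at 4.93, and neither was called. RpL34a, whose partner RpL34b is not analysed here, ranged from 11.59 to 13.83 in Mock. Its differences ran from -0.61 on the arrays labelled PSC to -0.26 in dRING, and none was called. With the block on Mock, dRING, PC and PSC alone the PSC difference was -0.59 and was called (limma adjusted p = 0.031).

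The 21 members not called in any depletion in the fit of all arrays were 15 of the large subunit and 6 of the small, and included 17 of the 30 bright members. Against Mock 1 to 3, RpL28 was called lower in PH (-0.39, limma adjusted p = 0.020 with the replicate block and 0.029 without it). RpL27 differed by 0.50 in dKDM2 and 0.48 in PH, and RpL17, beside the exit tunnel, by 0.58 and 0.43. RpS7, of the small subunit, differed by -0.28 and -0.32, although a dimmer probe set for it gave 1.60 and 0.87. RpS26, near the exit of the message, differed by 0.10 in both. RpL39, at the exit tunnel, differed by 0.13 and 0.16, and RpL41 by 0.09 and 0.06.

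Under the deposited scale, the bright members as a group sat lower on part of the dKDM2 and PH arrays. For each array, the median over the 30 bright members of the difference from their Mock means was taken. On deposited values it was -0.78, -0.31 and 0.15 for dKDM2 replicates 1 to 3 and -0.63, -0.40 and 0.05 for PH. The 14 Mock arrays ran from -0.15 to 0.08, and the dRING, PC and PSC-labelled arrays from -0.04 to 0.07. Replicates 1 and 2 of dKDM2 and PH were therefore below every Mock array, and replicate 3 of each was not. Replicate 3 of dKDM2 lay above every Mock array.

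After quantile normalization the same medians were -0.19, 0.09 and 0.20 on dKDM2 and -0.13, 0.01 and 0.10 on PH, beside -0.11 to 0.09 on Mock. Only replicate 1 of each then lay below every Mock array. Replicates 2 and 3 of dKDM2 and replicate 3 of PH lay above every Mock array, at 0.088, 0.199 and 0.097. The highest Mock value was 0.086, and replicate 3 of the arrays labelled PSC was also above it, at 0.098. The upper quartile of deposited values moved with the deposited medians, at 5.77, 5.89 and 6.59 on dKDM2 and 5.62, 5.72 and 6.31 on PH, and at 6.41 to 7.15 on Mock. Its part in the lower medians was not tested. On deposited values 2 members were higher and 11 lower in dKDM2, and 2 higher and 12 lower in PH. With arrays centred on their medians the counts were 0 higher and 17 lower, and 1 higher and 22 lower. The shares of all genes called on these scales are not given here, so the counts show nothing particular to ribosomal protein genes. Centring moved the median of all genes to -0.09 in dKDM2 and -0.14 in PH. Of all calls, 55.6% were higher in dKDM2 on the main scale, 45.7% on deposited values and 19.5% after centring, and 56.2%, 47.9% and 14.9% in PH.

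**Figure D4:**
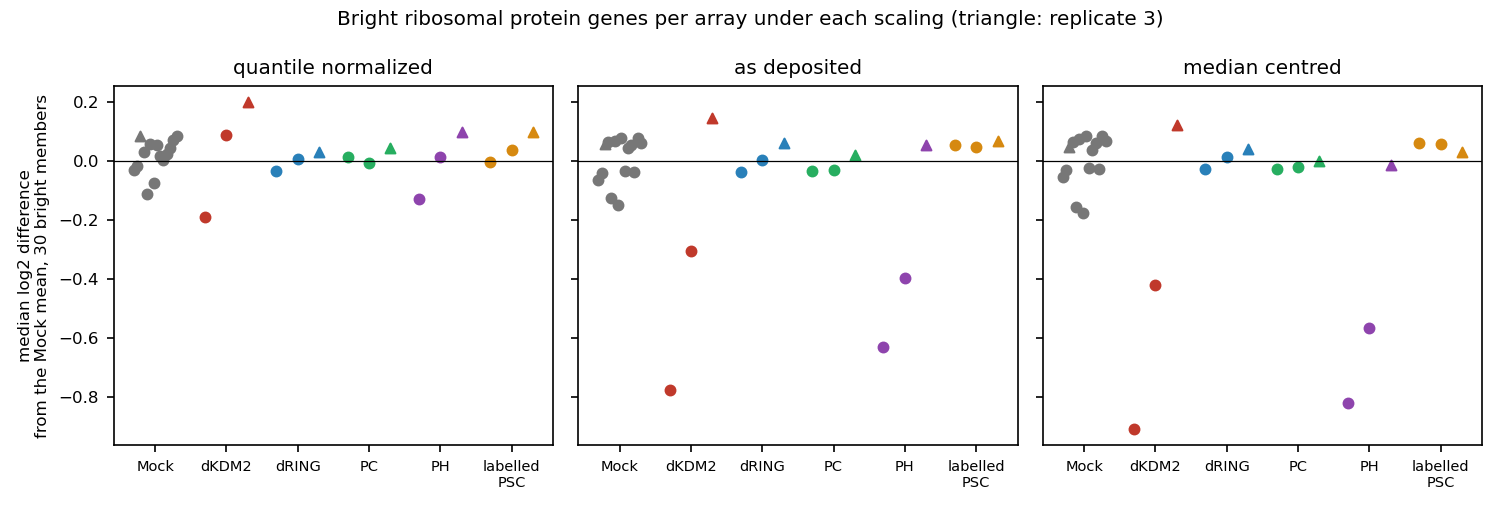
Median log2 difference from the Mock mean over the 30 bright ribosomal protein genes, 1 point per array, for quantile-normalized, deposited and median-centred values. Triangles are replicate 3. On the deposited and centred scales the first 2 replicates of dKDM2 and PH lie below all Mock arrays. On the quantile scale only replicate 1 of each does, at -0.19 and -0.13 against a lowest Mock value of -0.11. Replicate 3 of dKDM2 lies above all Mock arrays on every scale. On the quantile scale dKDM2 replicate 2 and replicate 3 of PH and PSC do so too.

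Genes that build ribosomes were lower more often than the ribosomal protein genes themselves in dKDM2 and PH, as counts without a test of the difference. Of 33 measured ribosome biogenesis factors, 17 were lower and 4 higher in dKDM2, with a median log2 difference of -1.11, and 21 were lower and 2 higher in PH, with a median of -1.59. With the spike covariate these splits became 9 lower and 9 higher in dKDM2 and 10 lower and 8 higher in PH. Against Mock 1 to 3 the dKDM2 counts were 10 lower and 3 higher. In dRING and PC 1 was higher and 0 lower in each, and on the arrays labelled PSC 3 were higher and 3 lower.

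Mtr3, a subunit of the RNA exosome, went from 7.95 ± 0.25 (SD, n = 14) in Mock to 4.37 ± 0.22 (SD, n = 3) in dKDM2 and 4.64 ± 0.50 (SD, n = 3) in PH. It fell by 3.58 in dKDM2 and fell by 3.32 in PH (limma adjusted p = 2.6e-11 and 3.6e-11). The exosome subunits Rrp40, Rrp42 and Rrp46 fell as well, with log2 differences of -2.39, -2.02 and -2.09 in dKDM2 and of -1.94, -2.18 and -2.21 in PH. On the arrays labelled PSC, Mtr3, Rrp40 and Rrp45 were called lower (-0.66, -1.18 and -0.81), calls that 10, 9 and 8 alternatives ended. RIOK2, a kinase of late small-subunit maturation, fell (-1.83 in dKDM2 and -2.65 in PH). Nle, which acts in large-subunit maturation, fell in both (-1.53 and -2.89), and so did bys, needed for the small subunit (-2.95 and -2.09). With the spike covariate bys was at -1.05 and 0.44 and Rrp46 at -1.28 and -1.13, none of them called, nor was Nle in dKDM2 (-1.39). The snoRNP protein NHP2 fell likewise (-1.74 and -2.35). Nopp140, a nucleolar chaperone, moved the other way and rose by 1.48 and 0.97. It was also called higher in dRING, by 1.14, a call that 34 alternatives ended. The PH rise was 0.11 and not called against Mock 1 to 3, and it was also lost on deposited values, after centring and without any 1 PH array.

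Genes of RNA polymerase I, which copies ribosomal RNA, were also lower in dKDM2 and PH. Of 7 measured, 4 were lower and 0 higher in dKDM2, and 5 lower and 0 higher in PH, with medians of -1.72 and -1.97. Polr1E fell from 8.86 ± 0.52 (SD, n = 14) in Mock, with differences of -3.27 in dKDM2 and -2.60 in PH (limma adjusted p = 8.7e-09 and 2.1e-07). Polr1C fell too (-2.12 and -2.02). Tif-IA, the initiation factor of polymerase I, fell (-2.15 and -1.97). In dRING 0 were called, in PC 1 was higher, and on the arrays labelled PSC 1 was higher and 1 lower.

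Translation factors were split. Of 27 measured initiation factors, 6 were higher and 5 lower in dKDM2, 4 higher and 5 lower in PH, 3 higher on the arrays labelled PSC, and 0 called in dRING and in PC. The poly(A)-binding protein gene pAbp rose by 2.13 in dKDM2 and 2.20 in PH, and eIF3a, of the scaffold factor eIF3, by 1.62 and 1.07. eIF2Bbeta, of the factor that recharges eIF2, fell (-1.81 and -3.73), although with the spike covariate it was at -0.53 and -2.03 and was not called. The eIF3a rise in PH was lost on deposited values, after centring and without PH replicate 1 or 2. On deposited values the split was 2 higher and 8 lower in dKDM2 and 1 higher and 12 lower in PH. Leaving out dKDM2 replicate 1 gave 4 higher and 2 lower, and leaving out PH replicate 1 gave 2 higher and 3 lower.

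Of 6 elongation and release factors, 1 was higher (eRF3, which works in termination, by 1.59 in dKDM2 and 1.79 in PH) and 1 lower (eEF1delta, at -1.51 and -1.95) in each of dKDM2 and PH. The eEF1delta difference was 0.11 in dKDM2 and 0.20 in PH with the spike covariate. Of 4 genes of ribosome-associated proteins, Nacalpha fell (-0.99 and -1.18) and bic rose (1.41 and 1.63). The spike covariate brought Nacalpha to -0.67 and -0.76 and bic to 0.86 and 0.89, and of these 4 differences only that of bic in dKDM2 was called. The products of Nacalpha and bic form the nascent polypeptide-associated complex at the exit tunnel. No gene of these lists was called in dRING or PC, and bic also rose by 1.04 on the arrays labelled PSC.

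Of 10 measured regulators tied to the supply of ribosomal proteins, 4 were higher and 1 lower in dKDM2, 3 higher and 1 lower in PH, 1 higher on the arrays labelled PSC, and 0 called in dRING and in PC. M1BP, a factor that binds ribosomal protein gene promoters in flies, read 7.64 ± 0.96 (SD, n = 14) in Mock, 4.41 ± 1.14 (SD, n = 3) in dKDM2 and 3.12 ± 0.54 (SD, n = 3) in PH. It fell by 3.23 in dKDM2 and fell by 4.52 in PH (limma adjusted p = 7.4e-05 and 9e-07). With the spike covariate its differences were -0.22 and -0.52 and were not called.

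Trf2, which serves the promoters of ribosomal protein genes in flies, rose by 1.65 in dKDM2 and 1.27 in PH. With the spike covariate these were 0.97 and 0.38 and were not called, and the PH call was also lost on deposited values and after centring. S6k, the kinase of RpS6, rose by 2.67 and 2.81, raptor, of the TORC1 complex, rose by 1.98 and 1.69, and larp rose by 2.21 in dKDM2. The spike covariate brought raptor to 1.28 and 0.77, not called. In PH it also lost its call on deposited values, after centring and without PH replicate 1 or 2. Against Mock 1 to 3 without a block larp was not called.

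**Figure D5:**
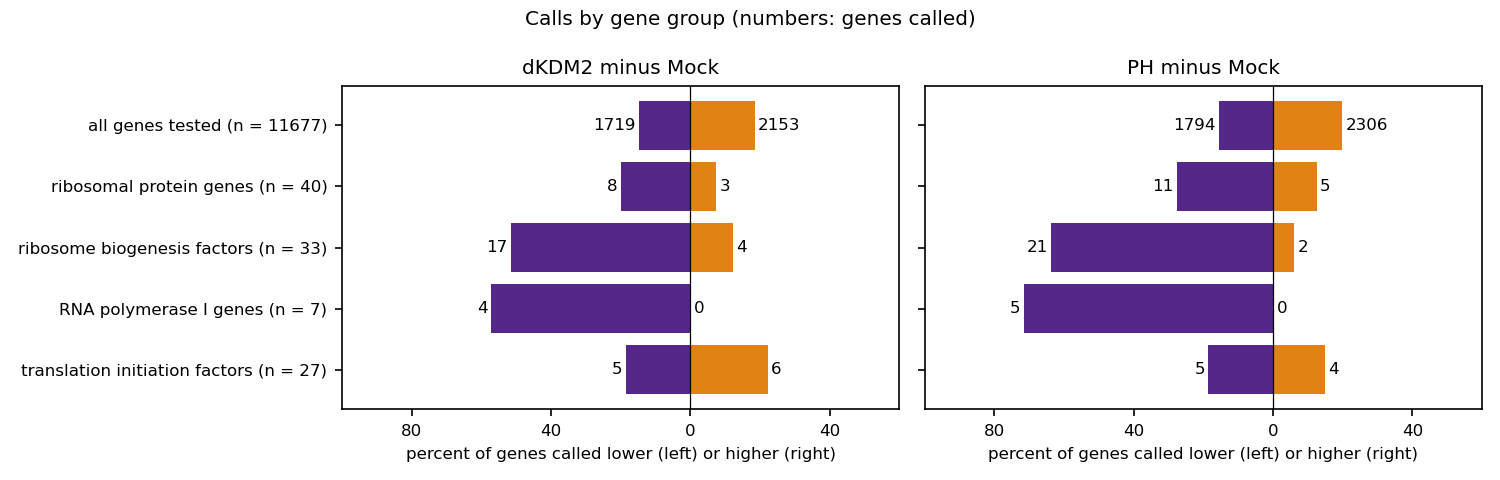
Percent of genes called lower (left) and higher (right) than Mock in dKDM2 and PH, for all 11677 genes tested, the 40 ribosomal protein genes and 3 lists of related genes, with the number called beside each bar. Ribosome biogenesis factors had 17 and 21 of 33 genes lower, against 8 and 11 of 40 ribosomal protein genes.

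The depletions were also compared with each other, which needs no Mock array. In 10 such pairs, 11 members were called in at least 1, a count without the matching share of all genes. Between dKDM2 and PH limma called 0 members against 2.47% of all genes, with 2 members at an unadjusted p under 0.05. Between dRING and PC it called 0 against 0.223% of all genes, with 0 at an unadjusted p under 0.05. RpL15, RpL24-like and RpS29 were lower in dKDM2 and in PH than in dRING and than in PC. In dKDM2 RpL23 was lower than in both as well, making 4 members in each pair (13.7% of all genes called against dRING and 13.1% against PC). In PH the fourth was RpS28a, near the floor, where 16.6% and 16.1% of all genes were called.

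RpL7-like and RpL40 were lower in dKDM2 and PH than on the arrays labelled PSC, with RpL7-like at -1.05 and -1.17 and RpL40 at -1.03 in PH (limma adjusted p from 0.0019 to 0.013 over the 4 tests). RpLP0 was higher than on the arrays labelled PSC, by 0.58 in dKDM2 and 0.44 in PH. Each of these pairs had 8 members called, beside 16.4% of all genes for dKDM2 and 17.5% for PH. The arrays labelled PSC differed from dRING in RpS10a alone (3.37% of all genes called) and from PC in RpS10a and RpS5b (3.93%).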

How the data were processed

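RNA from S2 cells (7 ug, RIN above 8, per the labels' protocols) was hybridised to Affymetrix arrays. The authors deposited log2 signals per probe set. The submitters' processing notes name RMA and GCRMA without saying which made these values, and 41.9% of values sit at a floor of 2.27. The values were not recomputed from scanner files. Arrays carry no read depth, so their number limits the precision.

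Of 18952 probe sets, 183 controls were left out. Of the other 18769, 13647 name 1 gene, 402 several and 4720 none here. Symbols were updated through the RefSeq gene table (Release 6), which gave no coordinates here. Of the members, 14 are read by probe sets with the suffix _s_at, whose probes match several transcripts, and 4 have several probe sets. No sequences are printed, since none was used here. All deposited value columns were mapped to samples (0 others).

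Values were quantile normalized, and the brightest probe set naming a gene alone stood for it. Genes at the floor on every array (305) were dropped, leaving 11677. limma 3.58.1 in R 4.3.3 fitted 6 group means to all 29 arrays with an intensity trend, and p-values were adjusted by Benjamini-Hochberg over all genes, per contrast. On simulated dKDM2-against-Mock data with 100 genes at each size, 23% of changes of size 1 and 77% of size 2 (log2) were recovered. The changed genes were drawn from a middle range of Mock means, below most bright members, so these shares are not rates for the members.

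Alternatives were deposited values, median centring, the mean over probe sets, only genes above 4 on at least 3 arrays, no intensity trend, the poly-A spike covariate, Mock 1 to 3 with and without a replicate block, and each array left out. Added after seeing the data were the block and its unblocked companion on Mock, dRING, PC and PSC alone, and averaging replicates 1 and 2. Same-numbered arrays of Mock, dRING, PC and PSC deviated together (correlations of 0.617 to 0.923 for every number and pair of groups). The numbers were therefore used as a block. In these groups replicates 1 and 2 lay close together and apart from replicate 3. The correlations thus show a shared split of replicate 3 from the others. They cannot show that numbers 1 and 2 are paired separately. Same-numbered arrays of Mock and of dKDM2 or PH did not deviate together (-0.11 to 0.15).

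Named genes were every measured member of a paralogue pair or -like gene, up to 5 called rises and 5 called falls per depletion, the largest called difference per pair of depletions, the 5 lowest and 5 highest Mock SDs, and up to 4 called genes of each related list per depletion. RpS18, RpS20, RpS27A and the other members outside this rule were named to account for every call or for a role, after their values were seen. Members and lists were chosen with earlier results of these data known.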

Additional observations from a re-analysis of the deposited data

Results flagged for a closer look

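Differences between depletions under the same contrast are listed here because the test of the difference itself passed in limma. Between dKDM2 and dRING, 4 members (10%) were called beside 13.7% of all genes, with RpL24-like differing most (-1.52). Between dKDM2 and PC, 4 members (10%) were called beside 13.1% of all genes, with RpS29 differing most (-1.51). Between dKDM2 and the arrays labelled PSC, 8 members (20%) were called beside 16.4% of all genes, with RpL24-like differing most (-1.60).

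For dRING minus PH, 4 members (10%) were called beside 16.6% of all genes, and RpL24-like differed by 1.72. For PC minus PH, 4 members (10%) were called beside 16.1% of all genes, and RpL24-like differed by 1.71. For PH minus the arrays labelled PSC, 8 members (20%) were called beside 17.5% of all genes, and RpL24-like differed by -1.81. For dRING minus the arrays labelled PSC, 1 member (2.5%) was called, RpS10a, at -0.79, beside 3.37% of all genes. For PC minus the arrays labelled PSC, 2 members (5%) were called beside 3.93% of all genes, and RpS5b differed by -1.36.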

How the results depend on the processing

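Of 32 calls of a member in a depletion, 7 held under every alternative in which the gene was tested. They were RpL15 and RpS29 in dKDM2 and PH, RpL23 in dKDM2, RpL7-like in PH and RpS10a for PSC. RpS10a was not tested under the limit to genes above 4 on at least 3 arrays. The spike covariate ended 17 calls, Mock 1 to 3 without a block 19, the replicate block 10, deposited values 8 and median centring 7. The cause was not tested for any of these. Mock 1 to 3 uses fewer arrays, with and without the block. The count of members called in dKDM2 was 11, and 6 against Mock 1 to 3, 17 after centring, 6 with the spike covariate and 7 to 12 with 1 array left out (7 without dKDM2 replicate 1 or 2). In dRING it was 0, and 1 (RpS19b) with the filter on dim genes, 1 with the mean over probe sets and 0 to 1 with 1 array left out (1 without Mock 1, 2 or 8). In PC it was 1, and 0 against Mock 1 to 3 in all 6 groups or in the 4, with the replicate block in all 6 groups or in the 4, and with replicates 1 and 2 averaged, and 0 to 1 with 1 array left out (0 without PC replicate 1 or 2). In PH it was 16, and 8 against Mock 1 to 3, 6 with the spike covariate, 23 after centring and 7 to 16 with 1 array left out (7 and 8 without PH replicate 1 and 2). For PSC it was 4, and 2 in the unblocked fit of 4 groups and 3 to 4 with 1 array left out. Members called between at least 1 pair of depletions were 11, and 18 on deposited values, 21 after centring, 5 with the spike covariate, 21 with the replicate block and 10 to 13 with 1 array left out. The shares of all genes called under these alternatives are not given here, so the counts show nothing particular to ribosomal protein genes.

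Among the called members and RpS19b, directions turned in 8 recomputations, and uncalled differences near 0 turned as well. RpS19b in dKDM2 (-0.97, not called) was 0.31 against Mock 1 to 3 with and without the replicate block. In PH, RpL37A was -0.082 after centring and -0.066 with the spike covariate, RpS12 -0.0063 on deposited values and -0.15 after centring, RpS21 -0.028 after centring and RpS20 0.0081 with the spike covariate. Counts for ribosome biogenesis factors and polymerase I genes stayed within 1.5 times in 47 of 48 recomputations for dKDM2 and PH, although their split by direction moved as reported. Of 116 called differences of related and target genes, 9 turned: Dis3 in dKDM2 and PH after centring (-0.06 and -0.11), and with the spike covariate Tsr1 (1.25), bys (0.44) and mod (0.48) in PH and eEF1delta (0.11 and 0.20) and eIF2beta (0.17 and 0.64) in dKDM2 and PH. None of the turned differences was called.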
